A study of Mus musculus with 9 samples.

Results

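Glia from the rest of the brain of young mice were compared between animals that lack both interferon receptors and wildtype animals, with ensheathing glia and astrocytes set side by side. The cells were chosen by their hashtag, the antibody-borne barcode that names the mouse and region of a cell, and by the unique molecular identifiers (UMIs) of 5 genes. A cell was kept at 1000 to 20000 UMIs with under 10% of them mitochondrial. It was placed in the rest of the brain when the largest of its 4 hashtags was a rest-of-brain hashtag. That hashtag had to hold at least 5 counts and at least 60% of the counts of the 4. Ensheathing glia were defined by at least 2 UMIs of Frzb and at most 1 of Dcx, and astrocytes by at least 5 UMIs of Slc1a2, Slc1a3 and Aqp4 together, none of Frzb and at most 1 of Dcx. By this rule 667 of 18390 retained cells were members. Young retained cells with no hashtag call stayed out, 240 at the ensheathing and 2536 at the astrocyte thresholds. The ensheathing glia were 65 and 71 cells from the 2 WT mice and 145 and 119 from the 2 KO mice, and the astrocytes were 64 and 95 cells from the WT mice and 53 and 55 from the KO mice.

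The study profiled neural stem cells and their surroundings by single-cell RNA sequencing in young and old mice of both genotypes, to find out how interferon sensing bears on the stem cell lineage. The WT mice carried Tlx-CreERT2 and a ROSA26 EYFP reporter on Fas tm1Cgn, backcrossed to C57BL/6, a line the labels call TiCY. The KO mice (TiCY-IFNAGRKO) carried the same alleles together with Ifnar1 tm1Agt and Ifngr1 tmAgt, so that the Cre line, the reporter and the Fas allele were common to both. All young mice were males of 16 weeks. Tamoxifen was given at 10 weeks with a chase of 6 weeks in WT and at 7 weeks with a chase of 9 weeks in KO, so this schedule moved with genotype. The old mice, used here only as a second set of animals, were 80 weeks old in WT, with tamoxifen at 71 weeks, and 92 to 105 weeks old in KO, with tamoxifen at 85 to 98 weeks, both with a chase of 9 weeks. Each genotype was 1 droplet reaction of pooled, hashtagged mice, so genotype and reaction cannot be told apart. Rest of the brain means striatum, rostral migratory stream and olfactory bulb pooled. The sort removed cells with CD45, Ter119 or O4 on the surface, and kept both eYFP+ cells and eYFP- cells low in PSA-NCAM. A UMI of the reporter was seen in 0 and 5 WT and 9 and 6 KO ensheathing glia, and in 11 and 22 WT and 10 and 15 KO astrocytes.

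Type I interferons bind the receptor chains Ifnar1 and Ifnar2, and interferon gamma binds Ifngr1 and Ifngr2. Both receptors act through Janus kinases, which activate transcription factors that enter the nucleus and switch on interferon-stimulated genes such as the Ifit, Oas and guanylate-binding protein families. Ensheathing glia wrap bundles of olfactory axons on their way into the olfactory bulb, while astrocytes clear glutamate and support synapses throughout the brain.

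The classes carried the genes their names call for. Frzb, a secreted Wnt antagonist and the gene that picked the ensheathing glia, stood there at 1228 and 1136 in the WT mice and 1100.3 and 1282 in the KO mice (CPM, the UMIs of a gene per 1000000 UMIs, from counts summed over the cells of 1 mouse; whether the deposited counts add unspliced to spliced molecules is not given in the sources used here). Genes the rule did not use behaved as markers: Npy was at 8145 and 7824 against 8596 and 9881 in ensheathing glia and at 10.4 and 7.97 against 21.9 and 9.35 in astrocytes (WT against KO), and Sox10 was at 242 and 296 against 315 and 296 and at 0 and 1.59 against 0 and 0. Apod, Fabp7 and Vtn were likewise higher in ensheathing glia than in astrocytes in every mouse, whereas Ngfr stood at 0 in ensheathing glia of 3 of the 4 mice. In astrocytes Aqp4, the water channel of their endfeet, was at 1108 and 724 in the WT mice and 749.9 and 561 in the KO mice, Slc1a2 at 4723 and 5987 against 6386 and 5001 and Slc1a3 at 3837 and 3213 against 3642 and 3259, and Mfge8 and Clu, which the rule did not use, at 1486 and 1484 against 1561 and 1576 and 4092 and 4468 against 5319 and 5515. In the ensheathing glia Aqp4 was only at 22 and 4.09 against 38 and 2.54. At the edge of the rule, 9 WT and 6 KO ensheathing glia had exactly 2 Frzb UMIs, while 8 WT and 2 KO cells had 1 and stayed out.

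Depth and the share of each class differed between the genotypes. The WT young library held 43961647 UMIs and the KO young library 78028524, and the ensheathing glia sums held 409567 and 489275 UMIs in WT against 1473223 and 1182172 in KO. Astrocyte sums were closer, at 383677 and 627386 against 457413 and 427738. The median ensheathing cell had 6651 and 6466 UMIs in the WT mice and 10022 and 9922 in the KO mice. Ensheathing glia were 35.3% and 19.9% of the hashtagged rest-of-brain cells in WT and 55.3% and 42.7% in KO. Between the 2 libraries 9 barcodes were shared, of which 2 were members here and none was a member in both. A doublet caller marked 1.62% of WT and 2.67% of KO cells. Since 2 mice against 2 allow no exact permutation p under 0.333, tests came from edgeR's quasi-likelihood fit over all genes, with Benjamini-Hochberg adjustment and a threshold of 0.05. Its p-values measure the spread between mice of 1 reaction each.

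The deleted receptors were checked first in every mouse. Ifngr1 (chr10:19591949-19610229, GRCm38) in ensheathing glia was at 125 and 147 in the WT mice and 4.07 and 2.54 in the KO mice (log2 fold change -5.25 ± 0.35, adjusted p = 6.08e-10; errors of log2 values are SE). Ifnar1 (chr16:91485238-91507441) was at 31.7 and 26.6 in the WT mice and 6.79 and 7.61 in the KO mice (log2 fold change -1.97 ± 0.47, adjusted p = 0.0359). In astrocytes Ifngr1 was at 115 and 134 in the WT mice and 10.9 and 2.34 in the KO mice (log2 fold change -4.14 ± 0.45, adjusted p = 9.03e-05). Both transcripts were thus far lower in KO without vanishing, and the genotypes did not overlap in either class. Astrocyte Ifnar1 was at 23.5 and 35.1 in the WT mice and 2.19 and 2.34 in the KO mice, which rests on 2 KO UMIs, a ratio of 0.0737 (95% counting interval 0.00855 to 0.29), and did not pass (adjusted p = 0.182). The ensheathing Ifnar1 call was lost when any 1 of the 4 mice was left out. The partner chains that were not targeted did not pass: Ifnar2 was at 176 and 137 against 131 and 114 in ensheathing glia (adjusted p = 0.547) and Ifngr2 at 24.4 and 26.6 against 12.9 and 20.3 (adjusted p = 0.622).

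In ensheathing glia 87 of 7797 genes tested passed, 1.12% of them, with 55 higher in KO (0.705%) and 32 lower (0.41%). In astrocytes 6 of 6225 passed (0.0964%), 5 higher (0.0803%) and 1 lower (0.0161%). At an unadjusted p under 0.05 by edgeR, in either direction, were 912 of the 7797 genes and 418 of the 6225. The genes that fell in ensheathing glia were led by interferon-stimulated genes, whereas those that rose mostly changed by under 2-fold, 29 of 55 against 9 of the 32 that fell. Median log2 fold changes were 0.95 among the genes that rose and -1.66 among those that fell. Without KO mouse 1 only Ifngr1 and Ifit1 still passed in ensheathing glia, so every other call there was lost or could not be tested, while 52 genes passed without KO mouse 2, 172 without WT mouse 1 and 97 without WT mouse 2. The astrocyte count went the other way, from 19 without WT mouse 1 to 54 without WT mouse 2, with 44 without KO mouse 1 and 49 without KO mouse 2. The counts therefore varied several-fold with the mice used, and named genes are described by their values in each mouse. Every gene that passed lacked overlap between the genotypes, so lack of overlap sets no named gene apart.

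**Figure D1:**
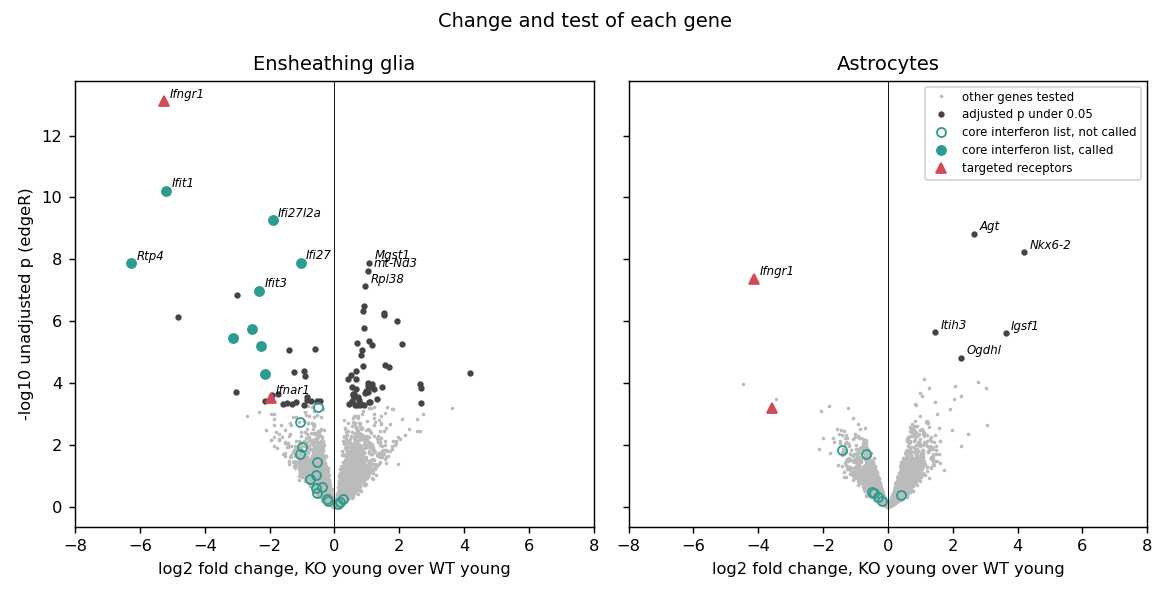
Log2 fold change of KO over WT (horizontal axis) against -log10 of the unadjusted p (vertical axis) for every gene tested, with each class in its own panel. Core interferon genes are green circles, filled where they passed and open where they did not. The targeted receptors are red triangles whether or not they passed. Other genes are dark grey where they passed and light grey where they did not. The 87 genes that passed in ensheathing glia include Ifngr1, Ifit1 and Rtp4 far to the left, and the astrocyte panel has 6, with Agt and Nkx6-2 to the right.

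Of the 32 genes that fell in ensheathing glia, 13 besides the deleted receptors were on one of the interferon lists. Several of their promoters hold the core of the interferon-stimulated response element, a motif of genes that type I interferon switches on. The letters GAAANNGAAA (N stands for any base), searched on both strands from 250 bases before to 50 after the start site, were found in 6 of the 22 fallen genes with a RefSeq promoter (27.3%: Bst2, Ifit1, Ifit3, Ifit3b, Isg15 and Socs1), in 1 of 41 that rose (2.44%, Rpl38) and in 1079 of 27025 promoters in all (3.99%). Overlapping matches count separately. Among genes tested in ensheathing glia the share was 3.59%. The core of the gamma-activated site, TTCNNNGAA, was in 4 of the 22 (18.2%: Bst2, Cct5, Gm10561 and Ifnar1) and in 9.55% of all promoters. The promoters of Ifit1, Ifit3, Isg15 and Bst2 are printed as examples that hold the motif. They are taken from GRCm38.p6 of RefSeq, 5′ to 3′ on the strand of the gene. Capitals mark the GAAANNGAAA matches on either strand. They lie at chr19:34640639-34640938 (plus strand, Ifit1), chr19:34583279-34583578 (plus, Ifit3), chr4:156200769-156201068 (minus, Isg15) and chr8:71537423-71537722 (minus, Bst2).
Ifit1: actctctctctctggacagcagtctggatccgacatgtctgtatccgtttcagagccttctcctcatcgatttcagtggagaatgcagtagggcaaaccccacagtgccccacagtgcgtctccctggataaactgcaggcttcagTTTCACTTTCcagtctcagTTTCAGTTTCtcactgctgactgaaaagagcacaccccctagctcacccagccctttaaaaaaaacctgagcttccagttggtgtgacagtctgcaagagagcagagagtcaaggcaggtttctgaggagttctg
Ifit3: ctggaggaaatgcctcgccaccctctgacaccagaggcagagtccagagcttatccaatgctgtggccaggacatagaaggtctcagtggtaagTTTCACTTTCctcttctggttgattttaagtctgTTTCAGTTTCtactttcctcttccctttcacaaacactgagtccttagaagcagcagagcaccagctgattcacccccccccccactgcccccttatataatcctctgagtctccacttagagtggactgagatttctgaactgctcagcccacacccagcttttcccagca
Isg15: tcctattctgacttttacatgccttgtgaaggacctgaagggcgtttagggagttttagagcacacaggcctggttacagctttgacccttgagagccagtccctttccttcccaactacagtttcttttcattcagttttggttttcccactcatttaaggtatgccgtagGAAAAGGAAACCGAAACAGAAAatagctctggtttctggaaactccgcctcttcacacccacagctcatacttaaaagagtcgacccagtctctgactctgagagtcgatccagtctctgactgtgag
Bst2: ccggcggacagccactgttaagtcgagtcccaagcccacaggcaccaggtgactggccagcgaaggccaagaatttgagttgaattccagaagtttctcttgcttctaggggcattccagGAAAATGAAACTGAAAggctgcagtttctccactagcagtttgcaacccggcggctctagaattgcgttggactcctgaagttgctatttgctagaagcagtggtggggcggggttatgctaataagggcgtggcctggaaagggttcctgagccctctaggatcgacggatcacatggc
Ifit1 and Ifit3 hold 2 separate matches on the opposite strand, the first starting 104 and 156 bases before the start site. Bst2 holds 2 and Isg15 holds 3 that overlap each other. A match of letters is not evidence of binding. Lgals3bp and Tap1, which also fell, had a promoter entry without a match. Rtp4, Ifi27, Ifi27l2a and Gbp6 had no promoter entry.

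Ifit1 and Rtp4 were nearly silent in KO ensheathing glia. Ifit1 (chr19:34640871-34650009), whose protein binds viral RNA that lacks a mature cap, was at 119.6 and 61.3 in the WT mice and 2.04 and 2.54 in the KO mice (log2 fold change -5.19 ± 0.47, adjusted p = 2.41e-07). Its WT UMIs came from 6 and 7 cells, and 1 cell held 40 of the 49 in WT mouse 1. When the cell with the most interferon UMIs was left out of every sum the change was -3.46 (adjusted p = 0.00247). Ifit1 passed in all 18 alternatives that gave a value. Rtp4 (chr16:23520291-23614222), an interferon-induced chaperone of taste and odorant receptors, had 21 and 15 UMIs in WT and 0 and 1 in KO, so the KO level was 0.0094 of WT (95% counting interval 0.000232 to 0.0558; adjusted p = 1.78e-05). No value of either gene overlapped between the genotypes.

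Ubiquitin-like and membrane-bound effectors moved with them. Isg15 (chr4:156199424-156200818), the ubiquitin-like modifier, was at 70.8 and 59.3 in the WT mice and 6.11 and 21.1 in the KO mice (log2 fold change -2.28 ± 0.40, adjusted p = 0.00212). Bst2 (chr8:71534255-71537456), or tetherin, which holds budding virions on the cell surface, was at 75.7 and 22.5 in the WT mice and 5.43 and 5.08 in the KO mice (log2 fold change -3.12 ± 0.52, adjusted p = 0.0015). WT mouse 1 was well above WT mouse 2 for Bst2. Lgals3bp (chr11:118392751-118402092), a secreted galectin-binding glycoprotein, was at 48.8 and 30.7 in the WT mice and 7.47 and 10.2 in the KO mice (log2 fold change -2.13 ± 0.43, adjusted p = 0.0114). Both WT mice lay above both KO mice for all of them, but Bst2 and Lgals3bp no longer passed without WT mouse 1.

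The neighbouring Ifit genes kept a residual level in KO. Ifit3 (chr19:34583531-34588731), a partner of Ifit1, was at 371 and 116 in the WT mice and 43.4 and 49.9 in the KO mice (log2 fold change -2.33 ± 0.31, adjusted p = 9.02e-05), and 1 cell held 92 of the 152 UMIs of WT mouse 1. Its copy Ifit3b (chr19:34607970-34613401) was at 208 and 47 in the WT mice and 21.7 and 19.5 in the KO mice (log2 fold change -2.54 ± 0.41, adjusted p = 0.000789), with 64 of 85 UMIs of WT mouse 1 in 1 cell. With the top cell of every sum left out, Ifit3 still fell by 1.35 on the log2 scale (adjusted p = 0.00306), whereas Ifit3b was at -0.86 and no longer passed (adjusted p = 0.36), nor did it without WT mouse 1. Reads of Ifit3 and Ifit3b are nearly identical, so the split between them is uncertain. Ifit2, the remaining tested family member, was at 34.2 and 14.3 against 17.6 and 22.8 (adjusted p = 0.914).

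Ifi27 and Ifi27l2a had the most UMIs of the 9 core interferon-stimulated genes that fell. Ifi27 (chr12:103434211-103440239), which encodes a small protein of the mitochondrial and nuclear membranes, was at 842 and 875 in the WT mice and 386 and 435 in the KO mice (log2 fold change -1.04 ± 0.12, adjusted p = 1.78e-05). Ifi27l2a (chr12:103442167-103443680), its neighbour on the opposite strand, was at 337 and 223 in the WT mice and 72.6 and 72.7 in the KO mice (log2 fold change -1.91 ± 0.19, adjusted p = 1.43e-06). With the top cell left out the changes were -1.03 and -1.83, and without the KO mouse 1 neither passed. The KO mice agreed closely with each other and lay well under both WT mice, and a residual level of both genes remained in KO.

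**Figure D2:**
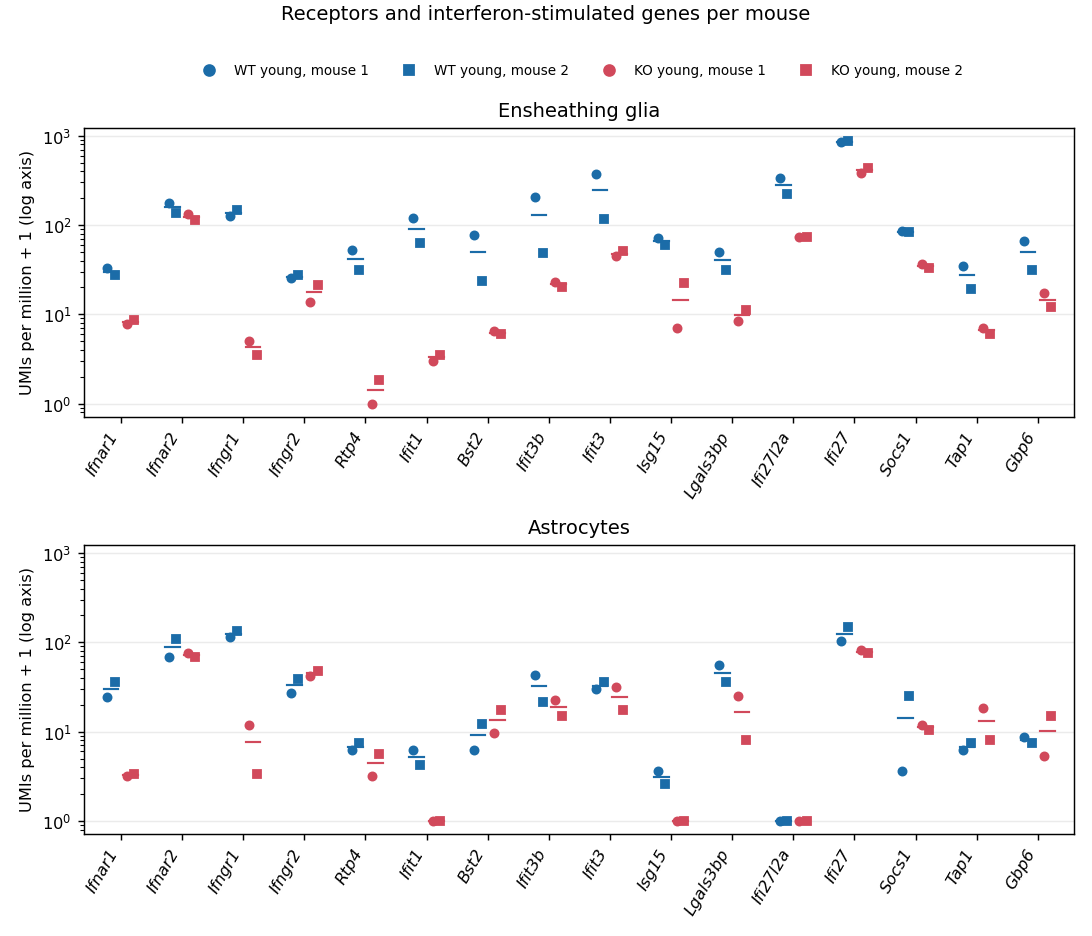
Level of the receptor chains and of interferon-stimulated genes (CPM on a log axis) in each mouse, with ensheathing glia and astrocytes side by side and WT and KO in separate colours. In ensheathing glia Ifit1 goes from 120 and 61.3 in WT to 2.04 and 2.54 in KO, while Ifi27 goes from 842 and 875 to 386 and 435.

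Across the list of 44 core interferon-stimulated genes, 39 had a UMI in ensheathing glia and 24 passed the filter on low counts. Of these 9 fell (Rtp4, Ifit1, Bst2, Ifit3b, Ifit3, Isg15, Lgals3bp, Ifi27l2a and Ifi27), none rose, and 14 fell at an unadjusted p under 0.05. Over all 7797 genes tested, 912 were under that p in either direction. The median log2 fold change over the 24 was -0.88, beside 0.00 over all genes tested. Members that did not pass include Ifitm3, which blocks viral entry, at 698 and 574 against 450.0 and 419.6 (adjusted p = 0.0509) and Xaf1 at 97.7 and 65.4 against 57 and 50.8 (adjusted p = 0.385). Several members under the filter had all or nearly all of their UMIs in WT: Usp18 was at 4.88 and 4.09 against 0 and 0, Irf7 at 17.1 and 2.04 against 0 and 0 and Oasl2 at 14.6 and 10.2 against 0 and 0.846. Rsad2 at 61 and 0 against 0.679 and 0 and Oasl1 at 24.4 and 0 against 0 and 0 were carried by WT mouse 1 alone. The number of core genes that fell ranged from 0, with cells holding a UMI of another cell type left out, to 13 without the filter on low counts.

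Summed over the list, core interferon UMIs were 3565 and 2496 CPM in WT ensheathing glia and 1347 and 1362 in KO. Levels in barcodes of 5 to 99 UMIs, which stand for free RNA, were 413 in the WT and 276 in the KO library. In WT mouse 1 the 3 cells with most core UMIs held 35.5% of them and 1 cell held 405 of 1460, whereas the top 3 cells held 15.6% in WT mouse 2, and 6.10% and 7.52% in the KO mice. Leaving the top cell out of each sum gave 2623 and 2376 against 1328 and 1339. The median cell had 2308 and 2116 CPM of core genes in WT and 1233 and 1285 in KO, so the lower level was not limited to the top cells. After each cell was thinned to 1000 UMIs, 80.0% and 90.1% of WT cells held a core UMI, against 66.2% and 76.5% of KO cells, and before thinning every ensheathing cell did.

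**Figure D3:**
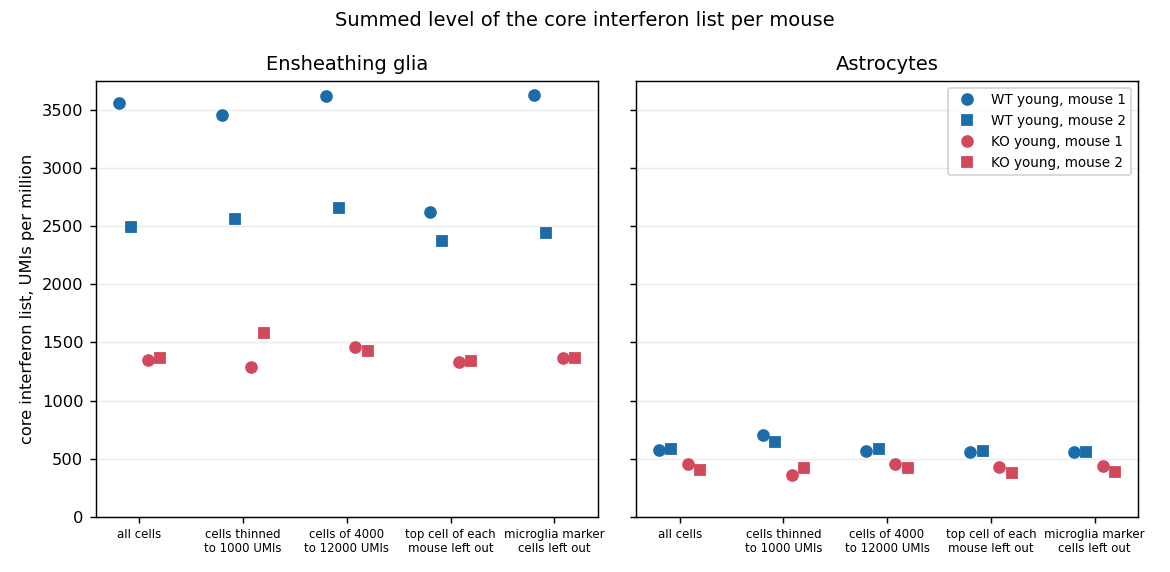
Summed level of the core interferon-stimulated genes (CPM) in each mouse, with all cells and with the cell of most core UMIs left out, for ensheathing glia and astrocytes. WT ensheathing glia lie at 3565 and 2496, KO ensheathing glia at 1347 and 1362, and all 4 astrocyte sums lie between 402 and 580.2.

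Antigen presentation and the interferon-inducible GTPases had 1 call each. Of 14 tested members of the MHC class I list only Tap1 passed (chr17:34187553-34197225), the peptide transporter of the endoplasmic reticulum, at 34.2 and 18.4 in the WT mice and 6.11 and 5.08 in the KO mice (log2 fold change -2.14 ± 0.52, adjusted p = 0.0427). It was lost with the top cell left out (adjusted p = 0.195). The list had a median of -0.50, 9 members lower at an unadjusted p under 0.05, and a summed level of 1704 and 1484 in WT against 1136 and 1087 in KO. Among all 7797 genes tested, 912 were under that p in either direction. Among interferon-inducible GTPases 3 could be tested and Gbp6 (chr5:105270702-105293698), a guanylate-binding protein, passed at 65.9 and 30.7 in the WT mice and 16.3 and 11 in the KO mice (log2 fold change -1.73 ± 0.40, adjusted p = 0.0308). This call too was lost with the top cell left out (adjusted p = 0.186). Both genes were highest in WT mouse 1, and both were lost when that mouse was left out.

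Within receptors and signalling 3 of 19 tested genes fell, namely both deleted receptors and Socs1, and none rose (median -0.31). Socs1 (chr16:10782240-10785536), which inhibits Janus kinases in a feedback on interferon signalling, was at 85.5 and 81.8 in the WT mice and 36 and 32.1 in the KO mice (log2 fold change -1.26 ± 0.25, adjusted p = 0.00987). It did not lean on WT mouse 1, and 1 cell held 23 of the 40 UMIs of WT mouse 2. On the interferon list of 300 genes that the study derived from cultured neural stem cells treated with interferon beta, 131 were tested. Of these 12 fell and 2 rose, beside 0.41% and 0.705% of all genes tested, and the median of the list was -0.23. Its summed level overlapped between the genotypes, at 32427 and 30823 CPM in WT and 31785 and 31825 in KO. Except for Plscr2, the genes of this list that fell are also on the other interferon lists. Plscr2 (chr9:92275602-92297752), a relative of the antiviral phospholipid scramblase 1, was on it at 215 and 137 in the WT mice and 95 and 95.6 in the KO mice (log2 fold change -0.84 ± 0.20, adjusted p = 0.0359). This call was lost without WT mouse 1. The 2 that rose were Islr and Serpina3n.

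Atf3 (chr1:191170296-191218039), a stress-induced transcription factor, was at 183 and 49.1 in the WT mice and 13.6 and 13.5 in the KO mice (log2 fold change -3.01 ± 0.41, adjusted p = 0.000108). In WT mouse 1 a single cell of 9483 UMIs with 5 Frzb UMIs held 74 of 75 Atf3 UMIs and 272 of the 294 UMIs of the microglia list. The microglia list as a whole was at 718 in WT mouse 1 and at 69.5 to 97.7 in the other 3, and P2ry12 was at 0 in all 4. With cells of 3 or more UMIs of microglia markers left out, Atf3 did not pass, at -1.13 (adjusted p = 0.521), whereas Ifit1 was at -5.08 and Ifi27l2a at -2.04. Cldn5 (chr16:18776847-18778262), a tight junction protein best known from endothelium, was at 539.6 and 629.5 in the WT mice and 402 and 390.0 in the KO mice (log2 fold change -0.54 ± 0.13, adjusted p = 0.0413) and came from 23 and 31 WT and 56 and 47 KO cells. It did not pass with those microglia marker cells left out (adjusted p = 0.174), nor in cells of 4000 to 12000 UMIs, where it was at -0.11, nor without WT mouse 2 or either KO mouse. The 6 endothelial markers, Cldn5 among them, summed to 649 and 717 in WT and 510 and 466 in KO. Of the others Itm2a was at 110 and 87.9 against 93.0 and 76.1 (adjusted p = 0.826), while Pecam1, Flt1, Ly6c1 and Slco1a4 were at 0 in both WT mice and KO mouse 2 and at most 7.47 in KO mouse 1. The part of endothelial RNA in the Cldn5 difference was not tested.

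Of the 55 genes that rose in KO ensheathing glia, 43 were on none of the lists. Serpina3n (chr12:104406729-104414329), a secreted protease inhibitor used as a marker of reactive glia, was at 176 and 85.8 in the WT mice and 439 and 288 in the KO mice (log2 fold change 1.54 ± 0.23, adjusted p = 0.00035). It was the 1 member of 8 tested reactive glia genes to pass (median 0.80). Fcgr2b (chr1:170958617-170976547), the inhibitory receptor for immunoglobulin G, was at 43.9 and 47 in the WT mice and 129 and 132 in the KO mice (log2 fold change 1.54 ± 0.23, adjusted p = 0.000331). Islr (chr9:58156268-58204306), a secreted protein with leucine-rich repeats, was at 26.9 and 18.4 in the WT mice and 55.7 and 67.7 in the KO mice (log2 fold change 1.48 ± 0.33, adjusted p = 0.022). Both KO mice lay above both WT mice for each of these genes, and for Fcgr2b the mice of each genotype lay close together.

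Grik1 (chr16:87895900-88290265), a kainate receptor subunit, was at 9.77 and 20.4 in the WT mice and 59.1 and 71.9 in the KO mice (log2 fold change 2.08 ± 0.36, adjusted p = 0.00201), and Gabrg3 (chr7:56716465-57387188), a GABA receptor subunit, at 17.1 and 20.4 in the WT mice and 63.8 and 56.7 in the KO mice (log2 fold change 1.69 ± 0.33, adjusted p = 0.00779). Gabrg3 did not pass with microglia marker cells left out (adjusted p = 0.211), with cells of 4000 to 12000 UMIs only, with the hashtag share at 80%, by DESeq2, with old mice in the fit or without KO mouse 1, and Grik1 not by DESeq2 or without KO mouse 1. Neuron markers, 6 of 8 of which had a UMI, were higher in KO as well, at 9.77 and 10.2 in WT and 31.9 and 34.7 in KO ensheathing glia and at 379 and 984 in the near-empty barcodes of the WT and KO libraries, and their part in the rises of Grik1 and Gabrg3 was not tested. The 2 markers of the class itself that passed were small changes: S100b was at 566 and 521 against 712 and 829 (log2 fold change 0.53 ± 0.13, adjusted p = 0.0413) and Kctd12 at 964 and 934 against 1252 and 1298 (log2 fold change 0.45 ± 0.11, adjusted p = 0.0453). The 14 markers tested include Frzb, which chose these cells. None was called lower. Of the 14, 11 lay above 0 and 3 below, with 5 higher and 2 lower at an unadjusted p under 0.05 by edgeR. No astrocyte marker passed in ensheathing glia (19 tested, median 0.22).

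Wdfy1 (chr1:79702262-79776143), an endosomal protein that takes part in Toll-like receptor signalling, was at 31.7 and 18.4 in the WT mice and 95 and 88.8 in the KO mice (log2 fold change 1.93 ± 0.30, adjusted p = 0.000494). In astrocytes it was at 23.5 and 11.2 against 65.6 and 70.1 and missed the threshold (log2 fold change 2.08, adjusted p = 0.0749). Paip2b (chr6:83805401-83831741), an inhibitor of poly(A)-binding protein, was at 4.88 and 4.09 in the WT mice and 27.2 and 28.8 in the KO mice (log2 fold change 2.63 ± 0.57, adjusted p = 0.0203). Ndrg1 and Ints3 rose from almost nothing: Ndrg1, which is mutated in a demyelinating neuropathy, had 3 WT and 58 KO UMIs, a ratio of 6.54 (2.13 to 32.7, 95% counting interval; adjusted p = 0.0453), and Ints3, a subunit of the Integrator complex, had 1 and 60, a ratio of 20.3 (3.51 to 815; adjusted p = 0.0106). Snhg9, a small nucleolar RNA host gene, was at 7.32 and 2.04 in the WT mice and 25.1 and 33 in the KO mice (log2 fold change 2.68 ± 0.59, adjusted p = 0.0225), with a similar difference in astrocytes that did not pass (7.82 and 6.38 against 37.2 and 60.8; adjusted p = 0.0713). These genes had few WT UMIs, and the WT sums were the shallower ones.

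**Figure D4:**
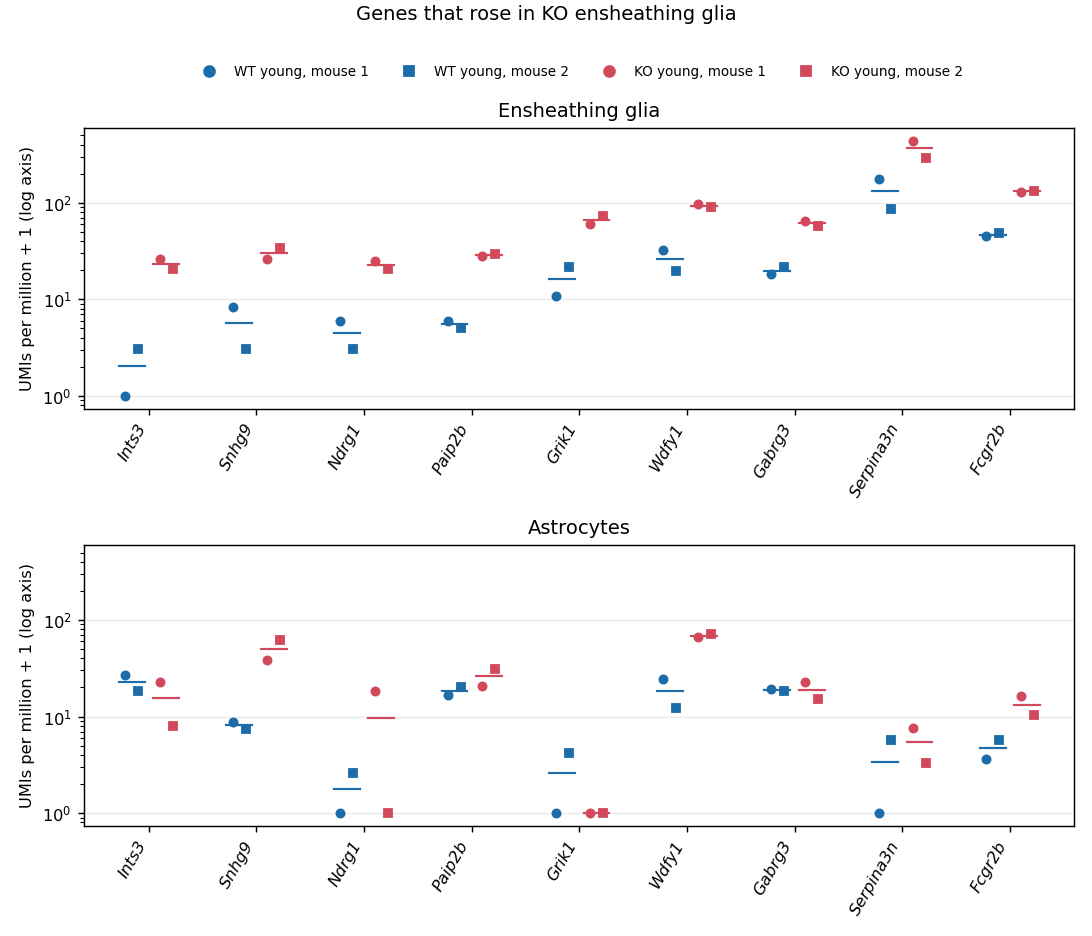
Level of genes that rose in KO ensheathing glia (CPM on a log axis) in each mouse of both classes. Serpina3n goes from 176 and 85.8 in WT to 439 and 288 in KO ensheathing glia. The genes drawn were picked among rises whose WT and KO values do not overlap in that class.

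Some genes of the ribosome and the respiratory chain rose, where 0.705% of all genes tested in ensheathing glia did. Of 79 ribosomal protein genes tested 5 rose and none fell, and these were Rpl38 at 447 and 515 against 907 and 932 (log2 fold change 0.95 ± 0.13, adjusted p = 7.38e-05), Rps29 at 418 and 505 against 812 and 868 (log2 fold change 0.88 ± 0.13, adjusted p = 0.000318), Rps28 at 234 and 321 against 472 and 519, Rpl39 at 479 and 648 against 807 and 863 and Rps21 at 857 and 1016 against 1284 and 1379.7. The list had a median of -0.03, with 45 of 79 members below 0. Among 73 nuclear respiratory chain genes 3 rose, with a median of -0.09: Cox7c, a subunit of cytochrome oxidase, was at 109.9 and 100.1 against 208 and 222 (log2 fold change 1.06 ± 0.18, adjusted p = 0.00175), Atp5k at 227 and 227 against 333 and 379 and Ndufa3 at 239 and 286 against 386 and 411. In astrocytes Rpl38 and Cox7c had log2 fold changes of 0.99 and 1.10 and did not pass (adjusted p = 0.101 and 0.0679). Depth per cell moved with these differences, and its part in them was not tested. In cells of 4000 to 12000 UMIs only, 46 genes passed in ensheathing glia, 24 higher and 22 lower.

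In astrocytes the genes that passed were others, with only Ifngr1 called in both classes. Agt (chr8:124556534-124569706), angiotensinogen, the precursor of the angiotensins and a product of astrocytes, was at 54.7 and 63.8 in the WT mice and 363 and 381 in the KO mice (log2 fold change 2.65 ± 0.23, adjusted p = 9.50e-06). Nkx6-2 (chr7:139579376-139582797), a homeobox transcription factor of ventral and glial lineages, was at 5.21 and 9.56 in the WT mice and 125 and 171 in the KO mice (log2 fold change 4.20 ± 0.40, adjusted p = 1.86e-05). Igsf1 (chrX:49782536-49797749), an immunoglobulin superfamily membrane protein, was at 5.21 and 4.78 in the WT mice and 72.1 and 53.8 in the KO mice (log2 fold change 3.63 ± 0.53, adjusted p = 0.00314). KO mice were several-fold above WT mice for all of them, and the 2 mice of a genotype lay close together.

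The other two genes that rose changed by less. Itih3 (chr14:30908572-30923760), a heavy chain that binds hyaluronan, was at 130.3 and 163 in the WT mice and 367 and 435 in the KO mice (log2 fold change 1.46 ± 0.21, adjusted p = 0.00314), and Ogdhl (chr14:32322019-32348151), a relative of oxoglutarate dehydrogenase, at 18.2 and 15.9 in the WT mice and 70.0 and 91.2 in the KO mice (log2 fold change 2.26 ± 0.38, adjusted p = 0.0162). Ogdhl was also higher in the near-empty barcodes of the KO library, at 50.6 against 9.14 CPM. Agt passed in each of the 20 alternatives, and all 6 genes passed without any 1 mouse. With the hashtag share set at 80%, which left 14 astrocytes in each KO mouse, only Agt passed. With at least 10 hashtag counts Itih3 and Ogdhl did not pass, and Ogdhl did not with doublets left out, with cells holding a UMI of other cell types left out or by DESeq2 either.

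Other lists moved in astrocytes beside these genes. Of 14 immediate early genes tested, which respond within minutes to activity or to cell handling, none passed by edgeR, but 13 were above 0, with 6 higher and 0 lower at an unadjusted p under 0.05 and a median of 0.43. Their summed level overlapped between the genotypes, at 2969 and 4570 in WT and 5632 and 4234 in KO. Over all 6225 genes tested in astrocytes, 418 were at an unadjusted p under 0.05 in either direction. Neuron markers were at 10.4 and 14.3 in WT and 74.3 and 53.8 in KO astrocytes. The part of either in the 5 rises was not tested.

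For Nkx6-2 and Agt the cells that held a UMI were counted, and they were part of the astrocytes. Nkx6-2 UMIs were found in 2 of 64 and 4 of 95 WT cells and in 15 of 53 and 15 of 55 KO cells, whereas Agt UMIs were found in 12 and 18 WT and in 19 and 17 KO cells. Cells with at least 5 Agt UMIs numbered 1 and 2 in WT and 9 and 9 in KO, and 7 and 6 of the latter also held Nkx6-2. Of all Agt UMIs, 122 of 166 and 87 of 163 in KO came from cells with an Nkx6-2 UMI, against 7 of 21 and 0 of 40 in WT. In KO most Agt UMIs thus lay in cells that also held Nkx6-2.

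Islr, Igfbp2 and Serpinf1, among the 6 genes with the smallest p for the difference between classes, were lower in KO astrocytes without passing there. In astrocytes Islr was at 430.0 and 217 in the WT mice and 136 and 161 in the KO mice (adjusted p = 0.294), Igfbp2 at 576 and 429 in the WT mice and 402 and 103 in the KO mice (adjusted p = 0.607) and Serpinf1 at 91.2 and 23.9 in the WT mice and 4.37 and 4.68 in the KO mice (adjusted p = 0.118). A UMI of Islr or Igfbp2 was present in 68.8% and 41.1% of WT and 47.2% and 43.6% of KO astrocytes. Agt stood at 125 and 86.0 in WT and 632 and 413 in KO among cells without either gene, and at 25.8 and 31.4 against 103 and 339 among cells with one. Agt was thus higher in both KO mice on each side, but the cells with Islr or Igfbp2 that held an Agt UMI were few. They numbered 6 and 7 in WT and 7 and 6 in KO. Whether the kinds of astrocytes caught or the level per cell differed between the genotypes was not tested.

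**Figure D5:**
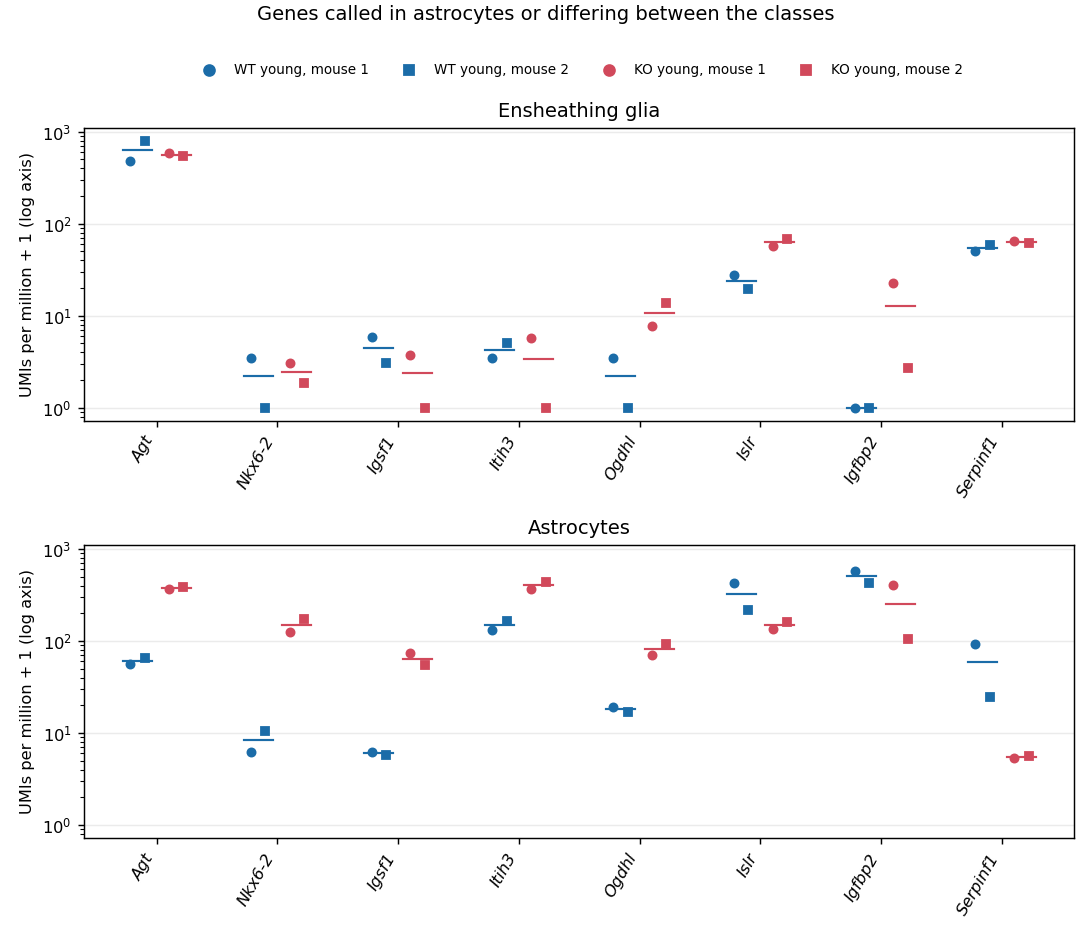
Level of the genes that passed in astrocytes and of Islr, Igfbp2 and Serpinf1 beside them (CPM on a log axis) in each mouse of both classes. Agt lies at 54.7 and 63.8 in WT and 363 and 381 in KO astrocytes, and between 481 and 787 in the ensheathing glia of all 4 mice.

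Interferon-stimulated genes were low in astrocytes of both genotypes. The core list was at 576 and 580.2 CPM in WT and 450.4 and 402 in KO, and the near-empty barcodes stood at 413 and 276. Of 44 members 33 had a UMI, 7 could be tested, and none passed, with 0 higher and 2 lower at an unadjusted p under 0.05 and a median of -0.42. Ifi27 was at 102 and 147 against 80.9 and 74.8 (adjusted p = 0.607), Lgals3bp at 54.7 and 35.1 against 24 and 7.01 (adjusted p = 0.572) and Ifit3 at 28.7 and 35.1 against 30.6 and 16.4 (adjusted p = 0.915). Ifi27l2a had no UMI in any astrocyte sum, where 3 UMIs over the 4 sums together would stand at 1.58 CPM. Thinned to 1000 UMIs, 42.2% and 40% of WT and 24.5% and 27.3% of KO astrocytes held a core UMI.

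Whether genotype acted differently on the classes was tested directly, as the ensheathing change minus the astrocyte change with each mouse as a term. Only 2 of 7303 genes passed (0.0274%). Agt differed by -2.84 ± 0.28 (log2, adjusted p = 3.72e-05): it stood at 481 and 787 against 582 and 544 in ensheathing glia, where it did not pass, and rose in astrocytes. Islr differed by 2.54 ± 0.37 (adjusted p = 0.00542), with Islr higher in KO ensheathing glia and lower in KO astrocytes, where it did not pass on its own. The next by p did not pass, namely Igfbp2 at 6.99, Laptm5, a lysosomal protein of immune cells, at -6.80, Atf3 at -4.52 and Serpinf1 at 3.64 (adjusted p from 0.111 to 0.187). The interferon genes that fell in ensheathing glia did not pass this test, with adjusted p from 0.533 for Bst2 upward, so these data do not show that they changed less in astrocytes. Their counts there were small, with 4 WT and 0 KO UMIs for Ifit1.

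Lists of markers of other cells differed in how they lay between the genotypes in the ensheathing sums. Neuron markers were higher and endothelial markers lower in both KO mice, with the values given above for Grik1 and Cldn5. Oligodendrocyte markers overlapped, at 68.4 and 26.6 in WT and 49.6 and 35.5 in KO. Neuroblast genes summed to 83.0 and 703 in WT and 228 and 164 in KO, with Stmn2 at 9.77 and 215 against 35.3 and 27.9 (adjusted p = 0.0759), and dividing cell genes to 95.2 and 219 against 78.7 and 71.9. Both were highest in WT mouse 2, and the genotypes did not overlap for the dividing cell genes. Hes6, Hmgn2 and Tubb2a, genes common in neuroblasts, were among the 32 that fell, and the part of these cells in them was not tested. Astrocyte sums held microglia genes at 667 and 1554 in WT and 2020 and 1169 in KO, and red blood cell genes at 0. Immediate early genes (1 of 16 tested fell, Atf3), heat shock genes (0 of 19), clock genes (0 of 9), glucocorticoid-responsive genes (0 of 5) and cholesterol synthesis genes (0 of 18, median -0.31) otherwise had no call by edgeR in ensheathing glia, with 3 higher and 4 lower among heat shock genes and 0 higher and 5 lower among cholesterol genes at an unadjusted p under 0.05. Over all 7797 genes tested, 912 were under that unadjusted p in either direction. Members nearest the threshold were the heat shock gene Hspa1b at 85.5 and 73.6 against 91.6 and 244 (adjusted p = 0.149), set apart by KO mouse 2 and the cholesterol enzyme gene Fdps at 183 and 159 against 86.2 and 132 (adjusted p = 0.174). In astrocytes Sgk1, a kinase gene induced by glucocorticoids, was at 5.21 and 12.8 against 129 and 30.4 and did not pass (adjusted p = 0.0749).

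A targeted allele can carry linked sequence of the strain it was made in, so genes near the receptors were counted, although what remains of it here was not tested. Within 10 Mb of Ifnar1, 48 genes were tested in ensheathing glia and 3 passed (6.25%, beside 1.12% of all genes tested): Gm36001 fell, and Grik1 and Adamts1 rose. None of 36 passed there in astrocytes, and none of 38 and 26 near Ifngr1 besides the receptor itself. Grik1, described above, is therefore on chromosome 16 with Ifnar1.

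Old mice gave a second set of animals for the same contrast, with 31 genes lower (0.307%) and 12 higher (0.119%) of 10094 tested in ensheathing glia. Age and tamoxifen schedule differed between these groups too. Of the 32 genes lower in young KO, 31 could be tested and 13 passed in the same direction, 40.6% of the young and 41.9% of the old list. These were the 2 receptors, Atf3, Bst2, Gbp6, Gm36001, Ifi27, Ifi27l2a, Ifit1, Ifit3, Ifit3b, Lgals3bp and Rtp4. Bst2 was at 75.4 and 47.8 in old WT and at 4.73 and 5.13 in old KO. Atf3 was at 23.6 and 44.6 against 3.15 and 8.86. Of the 31 young falls tested, 25 lay on the same side in old mice, and Cct5 and Tubb2a were among those with the opposite sign.

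Of the 55 rises, 3 passed in the same direction in old mice (Mgst1, Serpina3n and Wdfy1), 5.45% of the young and 25% of the old list. On the same side in old mice lay 43 of the 55, and Ints3 and Snhg9 were among those with the opposite sign. In old astrocytes 2 of 7338 genes were higher (0.0273%) and 2 lower (0.0273%). None of the 5 young rises passed there, Igsf1, Itih3 and Ogdhl had the opposite sign, and Ifngr1 fell again. The old KO astrocytes were 32 and 73 cells, and the difference between ages was not tested.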

How the data were processed

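Droplet single-cell libraries of 2 genotypes and 2 ages were analysed from the deposited UMI counts per gene and barcode and hashtag counts per barcode. The submitters' processing notes name kallisto, bustools, Scanpy 1.6.0 and the build GRCm38. The authors deposited these counts without normalization, and the annotation release, or whether unspliced molecules are summed with spliced ones, is not given in the sources used here. Hashtag columns were read as mice. Counts of the cells in each class were summed per mouse, so that n was 2 mice per group, and were fitted with edgeR 4.0.16 (filterByExpr, TMM factors, glmQLFit and glmQLFTest, Benjamini-Hochberg over all genes tested, threshold 0.05). DESeq2 1.42.0 was an alternative. The difference between classes used an interaction term with mouse as a covariate. Levels are CPM within a sum and log2 fold changes are KO over WT with SE. Counting intervals of ratios are exact at 95% and cover counting error only, as do floors of 3 UMIs. UMI totals per sum ranged from 383677 to 1473223. Replicates of a group differed by more than counting noise (chi-square per degree of freedom 1.73 to 2.31). Doublets marked with Scrublet stayed in and were left out in an alternative.

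Named genes were the 4 receptor chains, in each class the 10 largest rises and 10 largest falls among genes that passed with at least 30 UMIs and no overlap between genotypes, every list member that passed (or the 2 with the smallest p), the 6 genes with the smallest p for the difference between classes, and genes called in both classes. Some genes that this rule names are not reported here. Genes outside it (uncalled core genes, markers, Mgst1, Cct5, Hes6, Hmgn2, Tubb2a, Adamts1 and Gm10561) were named after their values were seen. The members, lists and tests were chosen with earlier results of these data known. The scripts were tested on simulated data. Promoters came from RefSeq (GRCm38.p6). Of the genes that passed in ensheathing glia, 22 of 32 lower and 41 of 55 higher had an entry. A hashtag library in no group was not used.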

Additional observations from a re-analysis of the deposited data

Results flagged for a closer look

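For 2 genes the test of the difference between the classes passed, as the ensheathing change minus the astrocyte change on the log2 scale. For Agt it was -2.8380 (SE 0.28, adjusted p = 3.72e-05 by edgeR's quasi-likelihood test), with the astrocyte level higher in both KO mice, and it passed under all 19 alternatives, from -3.5608 with the hashtag share at 80% to -2.4981 without WT mouse 2. For Islr it was 2.5360 (SE 0.37, adjusted p = 0.00542), with both KO mice above both WT mice in ensheathing glia and below both in astrocytes. The Islr difference did not pass with the hashtag share at 80% (adjusted p = 0.254), with cells thinned to 1000 UMIs (0.869), with cells holding a UMI of other cell types left out (0.978) or without the mouse term (0.221). Groups of 2 mice are too small for a check of single outlying samples.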

How the results depend on the processing

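No paired analysis was possible because equal hashtag numbers in WT and KO name different mice. In ensheathing glia 87 genes passed, against 19 with the hashtag share at 80%, 9 with cells thinned to 1000 UMIs, 46 in cells of 4000 to 12000 UMIs, 56 with cells of 3 or more microglia marker UMIs left out, 206 without the filter on low counts and 27 by DESeq2, which left 2570 genes without an adjusted p. With cells holding a UMI of other cell types left out, edgeR called 0 of 2077 genes, with 140 at an unadjusted p under 0.05, on 14 to 22 cells per mouse. Leaving out 1 mouse gave 2 to 172 genes in ensheathing glia, 19 to 54 in astrocytes and 9 to 37 for the difference between classes, where a lone mouse was assumed to vary like the others. The share of calls that were higher fell from 63.2% to 52.2% in cells of 4000 to 12000 UMIs, and to 47.7% and 44.3% without WT mouse 1 and 2. In astrocytes the 6 calls became 1 with the hashtag share at 80%, 3 with at least 10 hashtag counts, 3 with thinned cells, 14 with stricter class thresholds, 12 with eYFP cells left out, 19 in cells of 4000 to 12000 UMIs, 10 with RLE size factors, 52 without the filter, 18 with at least 10 UMIs in 2 sums and 14 with old mice in the fit. For the difference between classes the 2 calls became 1, 22, 1 and 6 with the share at 80%, at least 10 hashtag counts, thinned cells and stricter thresholds, 14 with eYFP cells left out, 5 with the top interferon cell left out, 11 with microglia marker cells left out, 37 without the filter, 7 with at least 10 UMIs in 2 sums and 1 without the mouse term. The cause of these changes was not tested.

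In ensheathing glia the core interferon list moved by less than the SD of the 2 WT mice, 756 CPM, under its 11 alternatives. KO lay below WT in each. The difference of the list, -1675 CPM, became -1166 with the top cell of each sum left out, where that SD was 175. In astrocytes its difference of -151.9 CPM became -94.81 with at least 10 hashtag counts, -284.3 with thinned cells, -97.29 with cells of other types left out and -206.8 with eYFP cells left out. All 37 named genes that passed in ensheathing glia had 1 sign under every alternative in which they were tested, as had all 6 in astrocytes. Over 108 genes followed singly, 1617 of 1970 values kept direction and side of the threshold, 196 lost it, 116 gained it, and 41 switched sign without passing. The exclusions of eYFP cells, top interferon cells and microglia marker cells and the depth window were chosen after seeing the data. Precision is limited by 2 mice per group and by the shallower WT sums, where many genes had under 10 UMIs.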
